A study of Mus musculus with 6 samples.

Results

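The Gimap genes, named for GTPases of immunity-associated proteins, were followed in spleens of AIMP2-DX2 overexpressing mice and their control littermates. The genes described are Gimap1, Gimap3, Gimap4, Gimap5, Gimap6, Gimap7, Gimap8 and Gimap9, 8 of the 22180 genes that the arrays report through a probe set annotated to a single symbol. They were chosen by name. Between them they have 9 such probe sets, and Gimap1, the gene with more than 1, is represented by the probe set with the higher mean over the 6 arrays.

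Each group holds 3 spleens of 1-year-old mice on 1 Affymetrix array each, called biological replicates by the labels. DX2 mice carried TRE DX2, a transgene for a shortened splice form of the tRNA synthetase scaffold AIMP2, together with CAG-rtTA, the doxycycline-dependent activator under the broadly active CAG promoter. Control mice carried TRE DX2 without the activator. Both groups had doxycycline in their pellets (6.25 mg per kg) from 8 weeks of age, and since rtTA was present only in DX2 mice, an effect of DX2 and one of rtTA cannot be told apart. All levels below are log2 values, all differences are DX2 minus control on that scale, and since probe sets differ in brightness, a margin between probe sets is read only for how it differs between spleens.

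GIMAP proteins are GTP-binding proteins found mainly in T cells, B cells and NK cells, many of them anchored in the membranes of lysosomes, the endoplasmic reticulum or other organelles. They are known for keeping resting lymphocytes alive: rats and mice that lack functional Gimap5 lose peripheral T cells, and mice that lack Gimap1 lose mature T and B cells. Endothelial cells also express some members. The genes lie side by side, and by the order of the gene table they run Gimap8, Gimap9, Gimap4, Gimap6, Gimap7, Gimap1, Gimap5 and Gimap3 along chromosome 6.

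The promoters of 4 members are shown because all members had a lower mean in DX2 spleens, and they set 3 windows with a match to the core bound by RUNX factors, regulators of lymphocyte genes, beside 1 without. They are RefSeq sequences of build GRCm38.p6 on the + strand, from 250 bases before to 50 bases after a start site, at chr6:48684328-48684627 for Gimap4, chr6:48718371-48718670 for Gimap7, chr6:48738797-48739096 for Gimap1 and chr6:48745947-48746246 for Gimap5. Capitals mark the match, which is the reverse complement (ACCACA) of the letters searched (TGTGGT).
Gimap4 promoter: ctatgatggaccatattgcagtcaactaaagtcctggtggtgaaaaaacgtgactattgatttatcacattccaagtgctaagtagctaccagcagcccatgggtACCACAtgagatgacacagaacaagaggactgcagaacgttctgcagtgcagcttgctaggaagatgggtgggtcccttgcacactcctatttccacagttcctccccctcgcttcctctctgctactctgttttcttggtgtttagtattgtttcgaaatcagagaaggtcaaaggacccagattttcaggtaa
Gimap7 promoter: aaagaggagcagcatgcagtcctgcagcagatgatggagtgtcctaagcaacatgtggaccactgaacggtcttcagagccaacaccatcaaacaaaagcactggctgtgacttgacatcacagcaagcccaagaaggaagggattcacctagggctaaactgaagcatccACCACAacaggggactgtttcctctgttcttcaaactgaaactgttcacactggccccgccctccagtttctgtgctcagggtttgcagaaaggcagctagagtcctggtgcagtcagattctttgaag
Gimap1 promoter: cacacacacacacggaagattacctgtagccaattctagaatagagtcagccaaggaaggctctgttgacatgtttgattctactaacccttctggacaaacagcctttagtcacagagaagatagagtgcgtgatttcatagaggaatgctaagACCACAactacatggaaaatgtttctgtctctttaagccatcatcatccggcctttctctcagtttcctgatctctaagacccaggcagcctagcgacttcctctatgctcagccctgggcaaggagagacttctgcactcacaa
Gimap5 promoter: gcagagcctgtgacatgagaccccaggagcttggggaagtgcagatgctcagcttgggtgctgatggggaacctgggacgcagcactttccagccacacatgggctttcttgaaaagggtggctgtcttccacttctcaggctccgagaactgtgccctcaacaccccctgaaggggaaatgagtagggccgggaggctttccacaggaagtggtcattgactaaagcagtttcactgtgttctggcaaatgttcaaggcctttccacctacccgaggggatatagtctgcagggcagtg

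The match begins 145 bases before the start site in Gimap4, 79 bases before it in Gimap7 and 95 bases before it in Gimap1. Among all 9 promoter windows of the family, 2 of them for Gimap8, these 3 held TGTGGT on either strand, against 16.8% of 32851 windows of the same length over all genes. The ETS core CCGGAAG was in 0 of the 9 (8.86% of all windows), and TATAAA was in 1 of the 9, that of Gimap6 (13.6% of all windows). The searched letters did not overlap each other in these windows. The family's windows held between 2 and 8 CpG dinucleotides with a median of 4, against a median of 7 over all windows, 54.2% of which held at most 8.

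By Xist and the Y-linked Eif2s3y, the DX2 spleens and control 3 were male and controls 1 and 2 were female, which the labels do not mention. The median over all genes was between 5.42 and 5.46 on every array. B cell, T cell and red pulp macrophage transcripts, which define spleen, averaged between 6.47 and 10.05 on every array. DX2 1 stood apart from DX2 2 and DX2 3 in the T cell, neutrophil and megakaryocyte lists, and the Gimap results are therefore also given without it.

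All 8 Gimap transcripts had a lower mean in DX2 spleens than in control spleens, and none passed the test over all genes. A lower mean was found for 48.4% of all genes. The differences lay between -0.95 for Gimap8 and -0.43 for Gimap7, with a median of -0.71 against 0.01 over all 22180 genes. In limma's test with Benjamini-Hochberg adjustment 0 of 8 members had an adjusted p under 0.05, against 0.316% of all genes, and the members' adjusted p ran from 0.0965 to 0.773. At an unadjusted p under 0.05 there were 4 members, Gimap5, Gimap6, Gimap8 and Gimap9, all lower, against 7.82% of all genes lower at that level. For 5 members, these 4 and Gimap1, every DX2 value was below every control value, against 11.2% of all genes. In whole spleen, fewer cells of a type and less RNA per cell cannot be told apart.

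**Figure D1:**
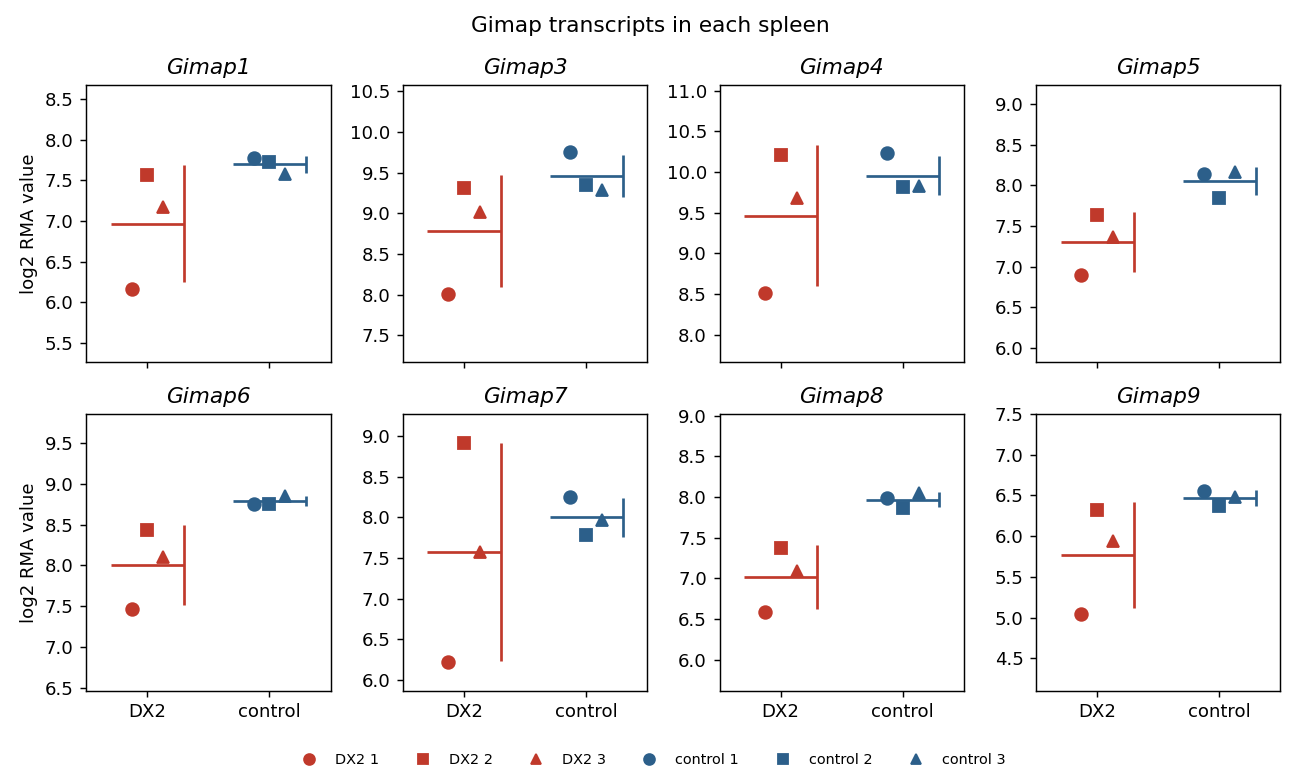
Log2 RMA value (y axis) of each Gimap transcript in the 3 DX2 spleens (left, red) and the 3 control spleens (right, blue); horizontal lines are group means and vertical lines the mean ± SD, and every panel spans the same number of log2 units. DX2 1 is the lowest of the 6 arrays in all 8 panels, and the DX2 values of Gimap5, Gimap6 and Gimap8 lie clear of the control values.

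Gimap8, the member with several GTPase domains in 1 protein, had the largest difference and the smallest p. It read 6.59, 7.38 and 7.09 in DX2 1, 2 and 3, against 7.99, 7.86 and 8.05 in controls 1, 2 and 3. Each DX2 spleen was below each control spleen, and the gap between the nearest values exceeded the control range. DX2 spleens averaged 7.02 ± 0.40, against 7.97 ± 0.10 for controls (SD, n = 3 per group), which is 1.93-fold lower in DX2. The difference of -0.95 (SE 0.20) had an adjusted p of 0.0965 in limma's fit. It was -0.74 without DX2 1 (adjusted p = 0.104), -1.13 without DX2 2 (adjusted p = 0.0406, past the threshold) and -0.94 with array weights (adjusted p = 0.0353, past the threshold), and adjusted p ranged up to 0.471 over the settings tried, the value with a sex term.

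Gimap5, the lysosomal member whose loss causes T cell lymphopenia, read 6.90, 7.64 and 7.36 in the DX2 spleens, against 8.14, 7.85 and 8.17 in the control spleens. The groups did not overlap, and DX2 2 came nearest to the controls. Its difference was -0.75 (SE 0.20, adjusted p = 0.140), and it was -0.55 without DX2 1. Gimap6, which binds the autophagy protein GABARAPL2, read 7.47, 8.44 and 8.11 in DX2 spleens, against 8.75, 8.76 and 8.86 in control spleens. The control values were nearly equal (SD 0.06) and the DX2 values were spread over a wider range (SD 0.49), all of them below the controls. The difference was -0.78 (SE 0.23, adjusted p = 0.170), and -0.51 without DX2 1.

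Gimap1, a member that mature T and B cells need to survive, and Gimap9, a less studied member, were below the controls by little in DX2 2 and by much in DX2 1. Gimap1 read 6.16, 7.56 and 7.18 in DX2 spleens, against 7.78, 7.73 and 7.58 in control spleens. Its groups were separated only by the step between 7.56 in DX2 2 and 7.58 in control 3, and its difference of -0.73 (SE 0.32, adjusted p = 0.330) was -0.33 without DX2 1. The dimmer Gimap1 probe set read 4.42, 6.04 and 5.44 in DX2 spleens, against 6.04, 5.49 and 6.07 in control spleens. Those groups overlapped, with a difference of -0.57 (SE 0.38, adjusted p = 0.532 when every probe set with 1 symbol was fitted), so the separation seen for Gimap1 did not hold on both of its probe sets. Gimap9 read 5.05, 6.32 and 5.94 in DX2 spleens, against 6.55, 6.37 and 6.48 in control spleens. Its difference was -0.70 (SE 0.29, adjusted p = 0.307), and -0.34 without DX2 1.

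For Gimap3, Gimap4 and Gimap7 the groups overlapped because DX2 2 reached the control range or passed it. Gimap3, a close relative of Gimap5, read 8.01, 9.31 and 9.02 in DX2 spleens, against 9.75, 9.34 and 9.28 in control spleens. Its difference was -0.68 (SE 0.32, adjusted p = 0.362), and -0.29 without DX2 1. Gimap4, a cytosolic member linked to T cell death, read 8.51, 10.20 and 9.68 in DX2 spleens, against 10.23, 9.81 and 9.82 in control spleens. DX2 2 was thus above 2 of the 3 controls, and the difference of -0.49 (SE 0.39, adjusted p = 0.596) was -0.01 without DX2 1. Gimap7, whose human counterpart can speed GTP hydrolysis by another GIMAP protein, read 6.23, 8.91 and 7.57 in DX2 spleens, against 8.25, 7.78 and 7.96 in control spleens. DX2 2 held the highest Gimap7 value of the 6 arrays and DX2 1 the lowest. The difference of -0.43 (SE 0.58, adjusted p = 0.773) turned to 0.24 without DX2 1 and was -1.10 without DX2 2 (adjusted p = 0.167).

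The DX2 spleens ranked the same way for every member. DX2 1 was the lowest of the 6 arrays in 8 of 8, DX2 2 was above DX2 3 in 8 of 8, and DX2 3 was below all controls in 8 of 8. The share of all genes with this order was not counted. Averages of T cell genes (6.47, 7.87 and 7.60 in DX2 1, 2 and 3) and NK cell genes (5.63, 6.16 and 5.94) ranked the DX2 spleens alike. The NK cell genes were split, however. Among the DX2 spleens Eomes, Nkg7, Prf1 and Gzmb were lowest in DX2 1, while Ncr1, Klrb1c, Klrd1, Klre1 and Gzma were highest there. The B cell average was instead highest in DX2 3 among the DX2 spleens. The naive T cell average was nearly equal in DX2 2 and DX2 3 (7.73 and 7.75). Of its genes, Ccr7, Il7r, Lef1, Foxo1 and Satb1 were higher in DX2 2, and Klf2, S1pr1 and Foxp1 in DX2 3. Set against the control mean, DX2 1 was lower by a median of 2.70-fold over the members, with a range of 2.21-fold for Gimap5 to 3.42-fold for Gimap7. DX2 2 differed from the control mean by -0.59 for Gimap8 to 0.91 for Gimap7, and DX2 3 by -0.88 for Gimap8 to -0.28 for Gimap4. Within DX2 the SD over spleens was between 0.37 for Gimap5 and 1.34 for Gimap7, and within controls between 0.06 and 0.25.

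Leaving out DX2 1 changed the size of the family's difference most. The median over members was -0.33 without it, against -0.71 with all arrays, 7 of 8 members kept a lower mean, and the groups still did not overlap for 5 of 8 (16.1% of all genes in that comparison). The count at an unadjusted p under 0.05 was then 3 (7.34% of all genes). Without DX2 2 the median was -0.99, the groups did not overlap for 8 of 8 members (18.1% of all genes), 8 of 8 had an unadjusted p under 0.05 (8.62% of all genes) and Gimap8 passed the adjusted threshold (1.67% of all genes). With sex in the fit, which makes the difference that of the 4 male spleens (3 DX2 against 1 control), all 8 members kept a lower mean, the median was -0.66 and 2 members had an unadjusted p under 0.05 (5.09% of all genes).

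**Figure D2:**
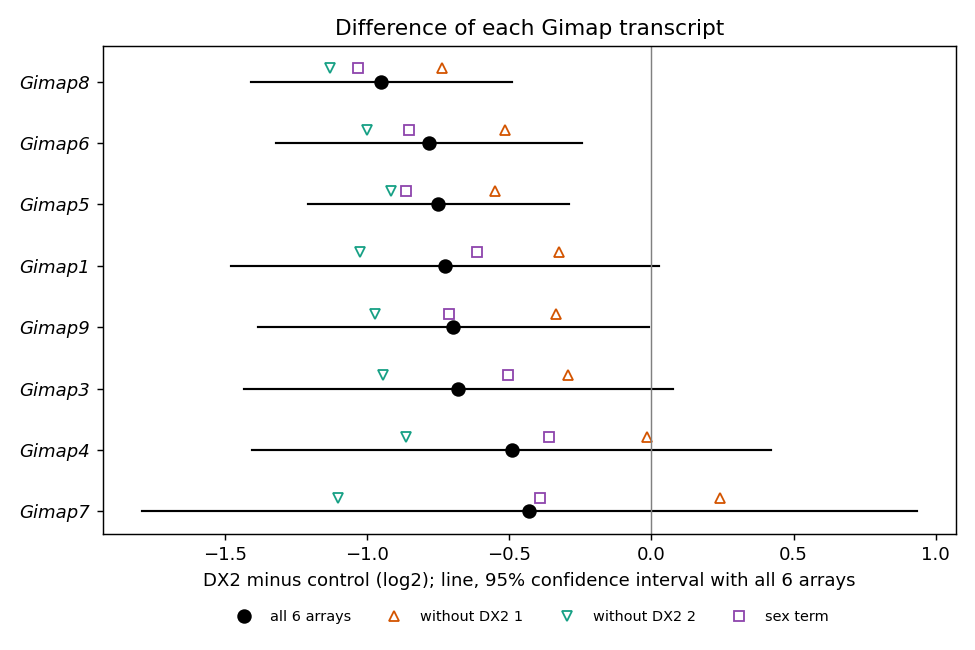
Difference of each Gimap transcript, DX2 minus control on the log2 scale (x axis), with all 6 arrays (filled circle, line for the 95% confidence interval from limma), without DX2 1, without DX2 2 and with a sex term (open symbols). The intervals of Gimap5, Gimap6, Gimap8 and Gimap9 lie below 0 before adjustment, and Gimap7 changes sign without DX2 1.

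The members lay at unequal distances from their mean profile over the 6 arrays. Each gene's log2 values were centred on their mean, and the root mean square distance to the mean profile of the 8 members was taken. It was 0.04 for Gimap9, 0.08 for Gimap1, 0.11 for Gimap3, 0.15 for Gimap6, 0.16 for Gimap4, 0.20 for Gimap5, 0.22 for Gimap8 and 0.42 for Gimap7, against a median of 0.55 over all genes. Gimap7 lay farthest because of DX2 2: the level of Gimap7 minus that of Gimap8 was -0.36, 1.54 and 0.49 in the DX2 spleens, against 0.26, -0.08 and -0.09 in the control spleens. The members' own values enter the mean profile, so their distances are a description. Without DX2 1 the distances ran from 0.04 for Gimap9 to 0.39 for Gimap7, against a median of 0.28 over all genes. Gimap7 was then farther from the profile than the median gene.

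The 10 other genes nearest to that profile were Ciita (distance 0.05), Rasgrp1 (0.07), H2-DMb2 (0.08), Sesn3 (0.09), Sp110 (0.09), Ptprcap (0.10), Epsti1 (0.11), Gpr18 (0.11), Ffar1 (0.12) and Shisa5 (0.12). Ciita, the activator of MHC class II transcription, read 7.69, 8.96 and 8.49 in DX2 spleens, against 9.26, 9.02 and 9.14 in control spleens. Rasgrp1, which activates RAS downstream of the T cell receptor, read 7.01, 8.31 and 7.86 in DX2 spleens, against 8.73, 8.38 and 8.53 in control spleens. In both genes, which were picked for their likeness to the profile, DX2 1 was lowest and DX2 2 was the nearest of the DX2 spleens to the controls.

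The array pattern of the Gimap transcripts was set beside marker lists of the cell types a spleen holds. The mean log2 value over the 8 members was 6.86, 8.22 and 7.74 in the DX2 spleens, against 8.43, 8.19 and 8.28 in the control spleens. The T cell list, with 14 of 17 genes on a probe set with 1 symbol, averaged 6.47, 7.87 and 7.60 in DX2 spleens, against 7.83, 7.53 and 7.73 in control spleens. Both were far lowest in DX2 1, while DX2 2 and DX2 3 lay within or near the control range in the T cell list. All 14 T cell genes had a lower mean in DX2 (median -0.38) and 0 passed the adjusted threshold. Of the 14, 1 had an unadjusted p under 0.05 and the groups did not overlap for 0 (7.82% and 11.2% of all genes lower). Cd2, an adhesion receptor of lymphocytes, differed by -0.81 (SE 0.38) and Lat, an adaptor of T cell receptor signalling, by -0.47 (SE 0.20). The T cell receptor chain Cd3e differed by -0.40 (SE 0.55). Without DX2 1 the T cell median was 0.04 and the Gimap median -0.33.

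The Gimap mean minus the T cell mean of the same array was 0.40, 0.35 and 0.14 in DX2 spleens, against 0.60, 0.66 and 0.55 in control spleens. All 3 DX2 values of that margin were below all 3 control values. Member by member, this margin did not overlap between the groups for 4 of 8, Gimap1, Gimap3, Gimap8 and Gimap9, all lower in DX2, against 0.419% of all genes. Subtracting the T cell mean adds its own spread to genes that do not follow it, so that background is low in part by construction. Without DX2 1 the margin did not overlap for 6 of 8 members, all but Gimap4 and Gimap7, against 12.7% of all genes. For Gimap8 the margin was 0.13, -0.49 and -0.51 in DX2 spleens, against 0.16, 0.33 and 0.32 in control spleens. For Gimap7 it was -0.24, 1.04 and -0.03 in DX2 spleens, against 0.43, 0.25 and 0.23 in control spleens, which overlap. The Gimap mean minus the B cell mean ran the other way. It was -1.08, -0.14 and -1.05 in DX2 spleens, against -1.47, -1.45 and -1.77 in control spleens. All 3 DX2 values of the B cell margin were above all 3 control values. The margin over the NK cell mean was lower in DX2 without overlap (1.23, 2.06 and 1.81, against 2.21, 2.12 and 2.21). No test of these margins was made.

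The naive T cell list, genes of resting and recirculating lymphocytes that B cells share in part, was lower in all 3 DX2 spleens. Its 8 measured genes averaged 7.20, 7.73 and 7.75 in DX2 spleens, against 8.26, 8.14 and 8.47 in control spleens, with a median difference of -0.75. All 8 had a lower mean, and 1 passed, Foxp1, a transcription factor of lymphocyte quiescence, which fell by 1.12 (SE 0.14, adjusted p = 0.0387 in limma's fit). Satb1, a chromatin organiser of T cells, differed by -1.04 (SE 0.18), the exit receptor S1pr1 by -1.30 (SE 0.36) and the homing receptor Ccr7 by -0.84 (SE 0.25). At an unadjusted p under 0.05 there were 5 of 8, and the groups did not overlap for 5 of 8 (7.82% and 11.2% of all genes lower). The Foxp1 call was lost with any array other than DX2 2 left out, with the replicate block, with centred arrays and with a sex term (adjusted p = 0.0580 to 0.228). The list's median was -0.49 without DX2 1. The Gimap mean minus the naive T cell mean was -0.34, 0.50 and -0.01 in DX2 spleens, against 0.17, 0.05 and -0.19 in control spleens, which overlap.

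Other lists moved beside the Gimap transcripts to different degrees. The 12 measured B cell genes all had a lower mean in DX2 (median -1.24), 5 of them past the adjusted threshold, and averaged 7.94, 8.36 and 8.79 in DX2 spleens, against 9.90, 9.64 and 10.05 in control spleens. At an unadjusted p under 0.05 there were 11 of 12, and the groups did not overlap for 11 of 12 (7.82% and 11.2% of all genes lower). Of the 5 calls, 1 held without DX2 1 and 0 held without DX2 3, without any one control, with the replicate block, with centred arrays or with a sex term, while 3 held with a robust prior. Here the average of DX2 2 was far below the controls, unlike its average over the Gimap members (8.22), which lay within the control range. Member by member, DX2 2 was below all controls for 5 of 8. These are the same 5 whose groups did not overlap (11.2% of all genes), since DX2 2 was the highest DX2 spleen for every member. Of 9 NK cell genes 7 had a lower mean (median -0.22, 0 past the threshold). Of the 9, 3 were lower at an unadjusted p under 0.05 and 3 lower without overlap (7.82% and 11.2% of all genes). The NK cell average of 5.63, 6.16 and 5.94 in DX2 spleens, against 6.22, 6.07 and 6.07 in control spleens, overlapped between the groups. Of 11 endothelial genes 10 had a higher mean (median 0.41, 0 past the threshold), at 7.21, 6.45 and 7.11 in DX2 spleens, against 6.47, 6.46 and 6.77 in control spleens. Of the 11, 4 were higher at an unadjusted p under 0.05 and 2 higher without overlap, against 1804 and 2382 of all 22180 genes. The endothelial average was thus highest in DX2 1, where the Gimap values were lowest.

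The myeloid and erythroid lists ran mostly the other way. Red pulp macrophage genes had a higher mean in 10 of 12 (median 0.48, 1 past the threshold, Cd5l, lost under the same settings as Foxp1). Of the 12, 8 were higher at an unadjusted p under 0.05 and 8 higher without overlap. Of all 22180 genes, 1804 and 2382 were. Erythroid genes had a higher mean in 9 of 9 (median 1.28), neutrophil genes in 10 of 10 (median 0.61) and megakaryocyte genes in 7 of 7 (median 0.53). Each of these lists had 0 genes past the threshold and 0 higher without overlap. The erythroid average was 9.68, 7.36 and 9.36 in DX2 spleens, against 6.31, 8.16 and 8.02 in control spleens, which overlap. The neutrophil and megakaryocyte averages were highest in DX2 1, at 9.16 and 9.40, where the highest on any other array was 7.81 and 7.83. Without DX2 1 the neutrophil median was 0.00, the megakaryocyte median -0.13 and the erythroid median 0.73, and with a sex term the neutrophil median was 0.13 and the erythroid median 0.76. Early response genes that can mark handling had a higher mean in 8 of 8 (median 0.55, 0 past the threshold). Of the 8, 3 were higher at an unadjusted p under 0.05 and 4 higher without overlap. The part of these shifts in the Gimap differences was not tested.

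**Figure D3:**
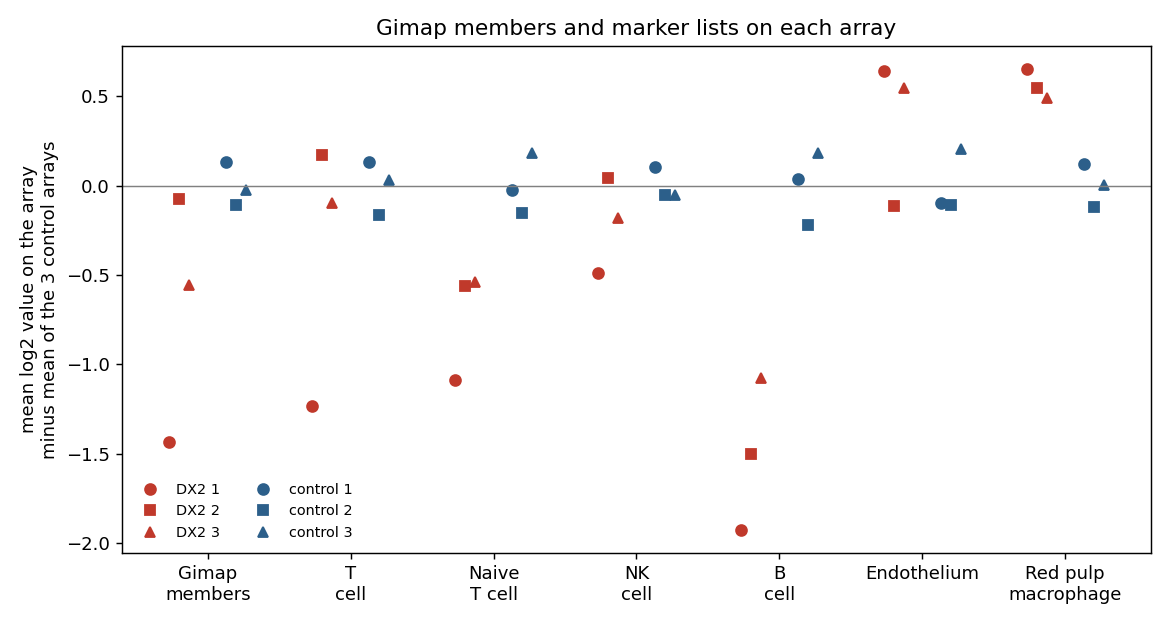
Mean log2 value of the 8 Gimap members and of marker lists on each array, as the difference from the mean of the 3 control arrays (y axis), with DX2 arrays left (red) and control arrays right (blue) in each list. By list mean, DX2 1 is lowest in the Gimap, T cell, naive T cell, NK cell and B cell lists, though single NK cell genes can run the other way. DX2 2 is near the controls for the Gimap and T cell lists and far below them for the B cell list.

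Genes whose proteins act with GIMAP proteins were mixed in direction. Among BCL2 family genes, whose products several GIMAP proteins can bind, 2 of the 6 measured had a lower and 4 a higher mean in DX2 (median 0.16), and 0 passed the threshold. The survival factor Bcl2 read 7.93, 8.01 and 8.26 in DX2 spleens, against 8.45, 8.04 and 8.25 in control spleens, which overlap. Bcl2l1, the gene of BCL-XL, read 7.37, 6.39 and 7.23 in DX2 spleens, against 6.08, 6.37 and 6.43 in control spleens, a difference of 0.70 (SE 0.26, adjusted p = 0.243). The genes of GABARAP and LC3 proteins, which carry autophagy membranes, had a higher mean in 4 of 5 (median 0.22, 0 past the threshold). Gabarapl2, the partner of Gimap6, read 7.49, 7.22 and 7.15 in DX2 spleens, against 6.82, 7.13 and 7.10 in control spleens, a difference of 0.27 (SE 0.14, adjusted p = 0.403). Gabarapl1, a relative of it, differed by 0.95 (SE 0.16, adjusted p = 0.0672), with all DX2 values above all control values.

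Of 7 measured genes of lymphocyte survival and calcium signalling 4 had a lower mean (median -0.11), and 0 passed the threshold. The calcium channel genes Itpr3 (-0.78, SE 0.16) and Itpr2 (-0.75, SE 0.18) and the kinase gene Stk4 (-0.50, SE 0.11), which naive T cells need to survive, did not overlap between the groups, at adjusted p of 0.0995, 0.115 and 0.108. Gsk3b, the kinase that Gimap5 restrains in mouse T cells, differed by -0.11 (SE 0.11, adjusted p = 0.686).

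The genes beside the Gimap block differed less than the Gimap genes. Of the 20 genes next to it, 10 on each side, 11 have a probe set with 1 symbol, and their differences lay between -0.24 for Aoc1 and 0.10 for Doxl1, with a median of -0.07. A lower mean was found for 7 of the 11, none had an unadjusted p under 0.05 in limma's fit, and 0 passed the adjusted threshold. Tmem176b, a membrane protein gene of myeloid cells on the Gimap3 side, read 9.16, 9.71 and 9.28 in DX2 spleens, against 9.65, 9.32 and 9.48 in control spleens. All 8 Gimap differences were below the lowest of the 11 neighbours. Most neighbours were dimmer than every member in control spleens. There Gm5111 averaged 2.83, AI854703 4.27 and Aoc1 4.97, against 6.47 for Gimap9, the dimmest member. Lrrc61, Tmem176a and Tmem176b were brighter, at 6.49, 8.52 and 9.48. A dim probe set can show a smaller difference, and the part of level in this contrast was not tested. Whether the 2 sets of genes differ was not tested.

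**Figure D4:**
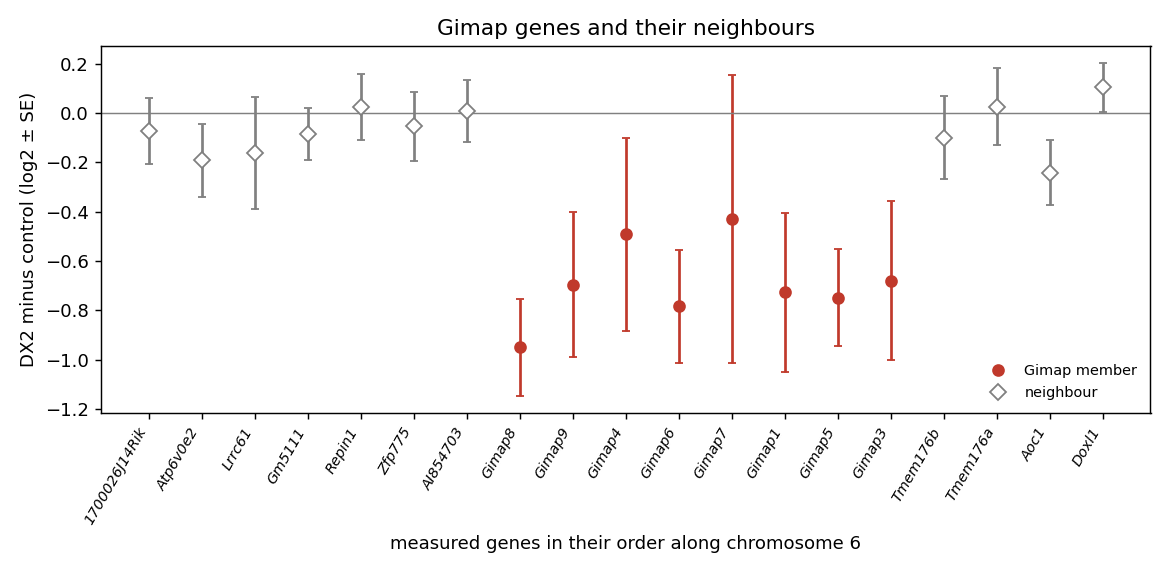
Difference of each measured gene, DX2 minus control on the log2 scale with its SE (y axis), in gene order along chromosome 6 (x axis, not to scale in distance), for the 8 Gimap genes (filled circles) and 11 neighbours (open diamonds). The Gimap genes lie between -0.95 and -0.43 and the neighbours between -0.24 and 0.10.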

How the data were processed

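Expression in 3 DX2 and 3 control spleens was read from the log2 values that the authors deposited as 1 table, made with RMA per the submitters' processing notes. RMA corrects background, normalizes between arrays and summarises probe sets, and it compresses large differences. Neither its version nor its probe annotation is given in the sources used here. The log2 scale was inferred from the range of the values. The floor of detection is unknown, and precision is limited by the few arrays.

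Of 41345 probe sets, 23521 had 1 gene symbol in the platform annotation, and each of 22180 genes was represented by its probe set with the highest mean. Groups came from the sample titles. All genes were fitted with limma 3.58.1 under R 4.3.3 (default lmFit and eBayes, no covariate, no filter), with Benjamini-Hochberg adjustment and a threshold of 0.05. The fit was tested on simulated data. The members, lists and settings were chosen with earlier results of these data known, so lists are described by counts and medians without a test. The text names all members, up to 4 genes of a list by smallest unadjusted p or by their role beside a member, and the 10 genes nearest to the mean member profile. The genes named for a role (Cd3e, Bcl2, Gsk3b and Tmem176b) were picked after their values were seen. All measured genes of the NK cell and naive T cell lists are also named, for their order among the DX2 spleens. That order was added after the values were seen. The alternatives were array weights, a sex term, leaving out single arrays, blocking on the replicate number, removing the dimmest 40% of genes, renewed quantile normalization, centred arrays, averaged probe sets, and a trended or a robust prior. A fit of every probe set with 1 symbol, and list medians, calls, margins and distances under other settings, were added after seeing the data. Promoters came from RefSeq (GRCm38.p6), where all 8 members were matched. Member proteins were not analysed here.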

Additional observations from a re-analysis of the deposited data

How the results depend on the processing

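All 8 Gimap members kept a lower mean in DX2 spleens under every setting tried, except Gimap7 without DX2 1 (0.24, where only 2 DX2 arrays remain, against -1.10 without DX2 2). With 1 array left out the count of members past an adjusted p of 0.05 was 0 to 1, against 0.00451% to 1.67% of all genes. The count at an unadjusted p under 0.05 was 3 to 8, against 5.92% to 8.62% of all genes lower. The count whose groups do not overlap was 5 to 8, against 14.8% to 18.1% of all genes lower (11.2% with all arrays). The median difference was -0.99 to -0.33. The highest of these counts and the lowest median came without DX2 2, and the highest median without DX2 1. Array weights gave 1 member past the threshold, Gimap8, where 2.47% of all genes passed. The groups did not overlap for 3 members after a second quantile normalization and for 3 with centred arrays (8.74% and 6.24% of all genes, against 11.2%), which shift the median of all genes to 0.07 and 0.10, and the cause was not tested. With a sex term 2 members had an unadjusted p under 0.05, in a fit with fewer degrees of freedom. The replicate block left the median at -0.71 with 0 members past the threshold and 3 at an unadjusted p under 0.05 (6.62% of all genes lower). Deviations of same-numbered spleens had correlations over genes of -0.32, -0.14 and 0.07, against -0.21 to 0.33 for spleens with different numbers. Whether same-numbered spleens share more than a number cannot be told from these values. Over all genes the block left 1 call against 70.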
